A study of Homo sapiens with 18 samples.

Results

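Chromatin accessibility was examined at the genes of chromatin remodelling complexes other than the ATPase and ARID subunits of BAF. The members were 37 genes: BAF subunits outside those families, and remodellers of the CHD, ISWI and INO80 classes, most of which are ATPases of their own complexes. A peak belonged to a member where the RefSeq protein-coding gene spanning the peak centre, or else the nearest within 50 kb, was on the list. That gave 182 of 71318 peaks, in or near 36 of the 37 genes. No peak was assigned to SMARCB1, which codes for a BAF core subunit, and it was not analysed here. Of the 182 peaks, 60 were gene-end peaks, with an edge within 1 kb of either end of the gene, and 122 lay away from gene ends, inside the gene or up to 50 kb outside it. CHD3 and BAZ2A had no gene-end peak. For BAZ2A, peaks near an internal RefSeq start therefore count as lying inside the gene.

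Remodellers use the energy of ATP to slide, evict or exchange nucleosomes, and so set which DNA other proteins can reach. BAF complexes combine an ATPase with a shared core, including SMARCC, SMARCD and SMARCE1, and with signature subunits that define the canonical, PBAF (BRD7, PHF10) and non-canonical (BRD9, BICRA, BICRAL) forms. ISWI enzymes space nucleosomes, CHD enzymes act at promoters, enhancers and in repression, and INO80-class enzymes exchange histone variants. BAF complexes are known to take part in B-cell development.

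The libraries were Omni-ATAC-seq, in which a transposase tags open DNA, from Raji, a human B-cell line from a Burkitt lymphoma. The series concerns SMARCA4 protein degradation through an auxin-inducible degron, a tag that lets auxin trigger destruction of the protein. Cells were labelled GFP high or GFP low at 24, 48 and 72 h, with 3 replicates for each combination, and all 18 samples carried the genotype Smarca4+/+. The labels do not give an auxin dose or a clone, what GFP reports, or which GFP level goes with loss of SMARCA4, so groups are named by GFP level only. Values come from 6 libraries, 1 per GFP level and time, because the 3 columns of each were no further apart than counting noise times a fixed factor, and were summed. They held 22908652 to 29790483 counts. Levels are counts scaled to library size (CPM), and log2 differences are GFP low minus GFP high, so a rise is a higher level in GFP low.

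Marker genes checked the label. Gene-end peaks were present for 7 of 8 B-cell markers, at 11.3 to 79.0 CPM, with none for BLK. Peaks were also present at the ends of 4 of 6 T-cell markers (CD3D, CD3E, CD2 and CD28), at 2.65 to 38.1 CPM. The same held for 1 of 6 myeloid markers (ITGAM), at 5.64 CPM, while CD3G and CD14 had no peak. Summed CPM of the B-cell list was 978 to 1038 in GFP high and 969 to 1017 in GFP low. The T-cell sum was 280.0 to 285 against 198 to 212, and the myeloid sum 54.2 to 61.1 against 38.4 to 45.9, both lower in every GFP low library. Of the marker peaks, 14 of 22 T-cell (63.6%) and 6 of 10 myeloid ones (60%) fell, against 25.4% of all peaks. Of the 71 B-cell ones 13 fell (18.3%). The part of these markers in the falls described here was not tested. In bulk material, fewer open cells and less opening per cell cannot be told apart.

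The stretches below show what the DNA at the starts of called gene-end peaks looks like, beside one whose peak was not called. Each is the 250 bases before an annotated start, 5′ to 3′ on the gene's strand, from RefSeq on GRCh38.p14, the assembly of the hg38 peaks. Capitals mark letters of searched motifs, on either strand. SMARCA5 (chr4:143513452-143513701, plus strand) and HELLS (chr10:94545538-94545787, plus) start in peaks that rose. So do CHD2 (chr15:92900074-92900323, plus), INO80 (chr15:41116281-41116530, minus) and EP400 (chr12:131949692-131949941, plus). SMARCD1 (chr12:50085092-50085341, plus) starts in a peak that was not called.
SMARCA5: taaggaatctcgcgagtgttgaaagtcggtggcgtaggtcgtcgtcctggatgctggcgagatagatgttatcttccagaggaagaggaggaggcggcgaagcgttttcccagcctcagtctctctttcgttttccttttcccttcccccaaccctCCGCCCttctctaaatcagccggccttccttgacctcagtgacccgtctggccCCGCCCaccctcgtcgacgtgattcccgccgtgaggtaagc
CHD2: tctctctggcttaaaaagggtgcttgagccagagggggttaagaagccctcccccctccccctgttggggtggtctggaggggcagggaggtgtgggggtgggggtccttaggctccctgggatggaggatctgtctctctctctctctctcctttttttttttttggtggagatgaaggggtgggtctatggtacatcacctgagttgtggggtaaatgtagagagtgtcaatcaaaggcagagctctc
INO80: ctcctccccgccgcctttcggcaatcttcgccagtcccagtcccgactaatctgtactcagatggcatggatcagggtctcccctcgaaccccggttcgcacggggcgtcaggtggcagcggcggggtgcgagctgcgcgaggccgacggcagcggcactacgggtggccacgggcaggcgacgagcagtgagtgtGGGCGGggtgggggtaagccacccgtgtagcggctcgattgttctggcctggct
EP400: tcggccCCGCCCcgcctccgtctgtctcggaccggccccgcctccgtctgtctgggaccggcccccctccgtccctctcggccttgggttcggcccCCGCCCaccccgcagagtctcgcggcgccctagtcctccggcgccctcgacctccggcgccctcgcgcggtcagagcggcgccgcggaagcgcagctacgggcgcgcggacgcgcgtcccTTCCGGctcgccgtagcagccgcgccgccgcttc
HELLS: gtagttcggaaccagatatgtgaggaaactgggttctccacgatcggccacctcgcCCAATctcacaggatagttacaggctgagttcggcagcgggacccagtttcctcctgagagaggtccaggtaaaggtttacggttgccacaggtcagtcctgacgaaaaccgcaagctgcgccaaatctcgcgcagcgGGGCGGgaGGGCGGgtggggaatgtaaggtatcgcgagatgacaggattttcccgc
SMARCD1: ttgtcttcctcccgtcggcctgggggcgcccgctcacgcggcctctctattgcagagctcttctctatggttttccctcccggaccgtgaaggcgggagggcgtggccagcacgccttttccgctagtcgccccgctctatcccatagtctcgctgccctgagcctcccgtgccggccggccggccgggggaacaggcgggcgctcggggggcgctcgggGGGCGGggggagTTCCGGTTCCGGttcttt

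The stretch of CHD2 held no CpG and no searched motif, although its peak rose. CpG counts in the remaining stretches were 20 for SMARCA5, 26 for INO80, 44 for EP400, 18 for HELLS and 28 for SMARCD1. The start window of CHD2 therefore differed in composition from those of the other remodeller genes shown.

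Across member genes, RefSeq gave 48 start windows of 300 bases, 250 before and 50 after the start, for 30 of the 37 genes. CHD6, CHD7, BPTF, SMARCC1, SMARCC2, ACTL6A and BAZ1A had no entry. Median GC content was 67.5% in the member windows and 62.3% in all 22199 protein-coding windows, and the median number of CpGs was 26 against 21. An accessible peak overlapped 33 of the 48 windows, and for 12 of these the peak rose in GFP low. The GC box GGGCGG, bound by SP and KLF factors, was in 37 of 48 member windows and 56.3% of all windows. It was in 10 of the 12 windows whose peak rose and 18 of the 21 whose peak was not called. The ETS core CCGGAA was in 12 of 48 (21.2% of all windows), and in 3 of 12 against 5 of 21. The NFY letters CCAAT were in 13 of 48 (34.7%), and in 4 of 12 against 6 of 21. Neither the CRE core TGACGT (8.94%) nor the NRF1 palindrome (1.5%) was in any member window. The YY1 core AAGATGGC was in 3 windows (3.53%), and the E-box CACGTG (8.34%) and the TATA letters TATAAA (9.47%) were in 2 each. These are letter matches on both strands, not binding sites, and the letters of the CRE core and the E-box can overlap.

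The first comparison asked which remodeller loci differed between GFP low and GFP high over the 3 times. The strongest changes were falls away from gene ends, near CHD6, CHD7, BPTF and EP400. The largest gene-end rises were smaller, at CHD6, INO80, BICRA, EP400 and CHD2. Of the 182 member peaks, 32 rose and 23 fell in the edgeR quasi-likelihood fit of GFP level plus time, at a Benjamini-Hochberg adjusted p under 0.05 over all peaks. That is 17.6% higher and 12.6% lower, where 13.4% and 25.4% of all peaks were called. The median log2 difference was 0.10 for the members and 0.03 for all peaks. Most calls of rises were lost without the 72 h pair: 6 of the 32 passed, all of CHD genes (3 of CHD2, 2 of CHD6 and 1 of CHD7). Over all peaks rises then went from 9570 to 2503. With the 24 h pair left out members had 30 rises, and with the 48 h pair left out 35. Loess scaling, which evens out a trend with abundance, gave 20 rises and 18 falls, upper-quartile scaling 53 and 19, and DESeq2 14 and 18.

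Position separated the directions. Among the 60 gene-end peaks 17 rose and 1 fell, 28.3% and 1.67%, against 33.0% and 4.69% of all gene-end peaks. Among the 122 peaks away from gene ends 15 rose and 22 fell, 12.3% and 18%, against 8.51% and 30.6% of all such peaks. The gene-end rises were small, with log2 differences of 0.14 to 0.56 and a median of 0.24. The falls away from gene ends ran from -0.33 to -1.49, with a median of -0.70. Of the 22 such falls, 18 also passed with loess scaling, and 15 passed with DESeq2 and under every scaling, filter, left-out pair and left-out column tried on the 6 libraries. Of the 17 gene-end rises 3 passed with loess scaling, those of CHD6, INO80 and BICRA, and without the 72 h pair CHD6 alone did. The 15 rises away from gene ends came to 5 without the 72 h pair. Member gene-end peaks had a median level of 23.1 CPM, near the 22.7 of all gene-end peaks, and those away from gene ends 7.82 CPM against 6.36.

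**Figure D1:**
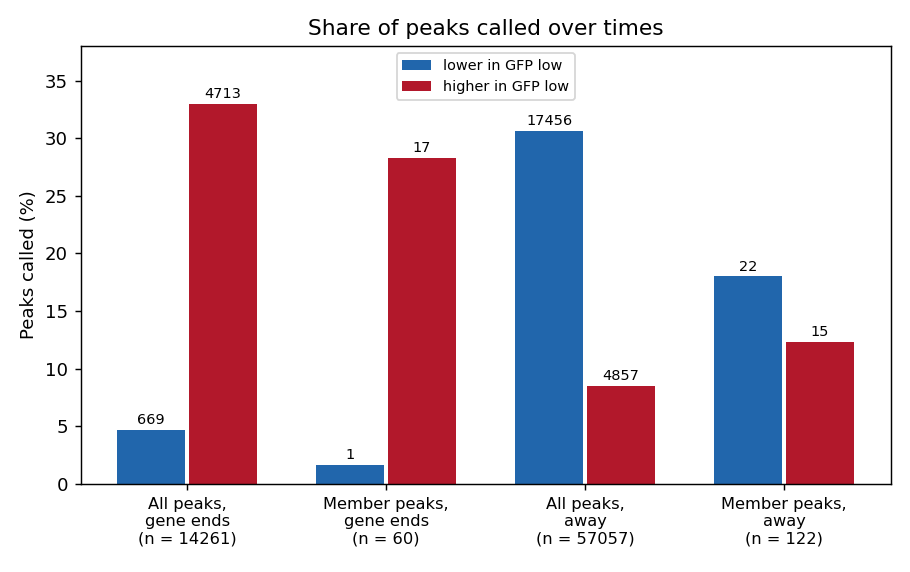
Percent of peaks called lower (blue) and higher (red) in GFP low over the 3 times, for all gene-end peaks, member gene-end peaks, all peaks away from gene ends and member peaks away from gene ends; the number above each bar is its count of called peaks. Member gene ends reach 28.3% higher against 33.0% of all gene ends, and member peaks away from gene ends 18% lower against 30.6%.

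**Figure D2:**
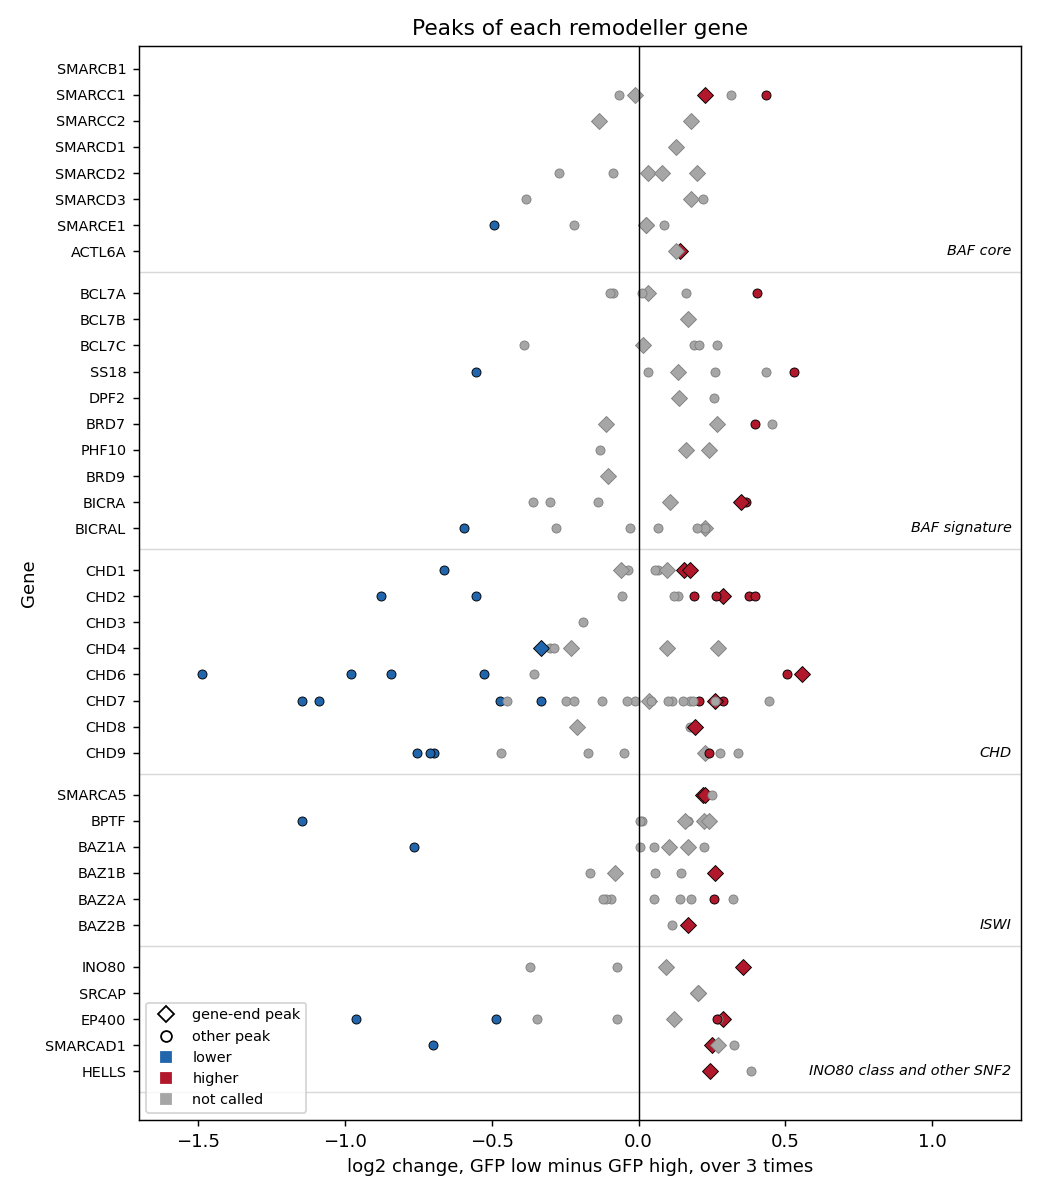
Log2 difference, GFP low minus GFP high over the 3 times, of each of the 182 member peaks, 1 line per gene and grouped by role; diamonds are gene-end peaks, circles other peaks, and colour gives the call. Called rises at gene ends are at most 0.56, and called falls away from gene ends reach -1.49.

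**Figure D3:**
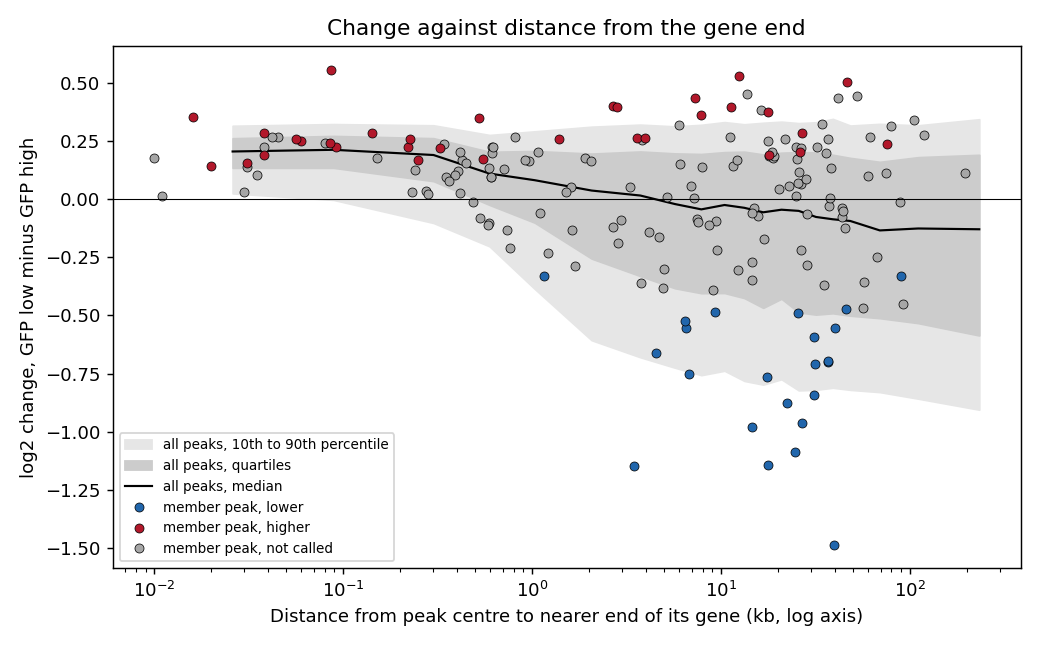
Log2 difference of the member peaks (points) against the distance in kb from peak centre to the nearest end of the gene (log axis), over the median (line), quartiles and 10th to 90th percentiles (bands) of all peaks with a gene in bins of about equal size. Median differences of all peaks go from 0.21 near gene ends to -0.13 at the largest distances, and the lowest member points lie beyond 1 kb.

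By gene, 8 had both a rise and a fall (SS18, CHD1, CHD2, CHD6, CHD7, CHD9, EP400 and SMARCAD1) and 12 had rises with no called fall. Another 5 had called falls only (SMARCE1, BICRAL, CHD4, BPTF and BAZ1A), and 11 had no called peak, among them SMARCC2, the 3 SMARCD genes and SRCAP. GFP levels did not overlap over the 3 times in 45 member peaks that were higher and 29 that were lower, 20.8% and 25.1% of all peaks being so. Of these, 27 and 19 passed the test.

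Of the 23 peaks of BAF core genes 3 rose and 1 fell, 13% and 4.35%, where 13.4% and 25.4% of all peaks did. Of the 13 at gene ends 2 rose, 15.4% against 33.0% of all gene ends. Of the 10 away from gene ends 1 rose and 1 fell (10% each, against 8.51% and 30.6% of all such peaks). ACTL6A, an actin-related subunit of the ATPase module, had the most open gene end of the core, at chr3:179562656-179563156. Its CPM in GFP high was 84.7, 95.5 and 91.7 at 24, 48 and 72 h, and in GFP low 93.9, 101 and 105. The groups overlapped, as GFP low at 24 h lay under GFP high at 48 h. The log2 difference was 0.14 ± 0.05 (SE, edgeR adjusted p = 0.0416), and it was -0.08 with loess scaling (edgeR adjusted p = 0.198). SMARCC1, a scaffold subunit of the core, had a gene-end peak (chr3:47781735-47782235) at 31.6, 40.2 and 38.9 CPM in GFP high, against 45.5, 41.6 and 42.1 in GFP low. The GFP levels did not overlap, with a gap that was widest at 24 h. It rose by 0.23 ± 0.09 (edgeR adjusted p = 0.0494). Without the 24 h pair the edgeR adjusted p was 0.358, and with loess scaling 0.367. A second SMARCC1 peak, 7.32 kb outside the gene (chr3:47788965-47789465), went from 11.4, 14.8 and 13.1 CPM to 18.1, 17.2 and 17.8. All GFP low libraries lay above all GFP high ones, a log2 difference of 0.44 ± 0.12 (edgeR adjusted p = 0.00532; 0.0609 without the 72 h pair).

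SMARCD2, a core subunit with a role in blood cell development, stood at 31.5, 36.9 and 33.7 CPM in GFP high, against 41.4, 29.1 and 38.4 in GFP low at its end (chr17:63842800-63843300). Its GFP low level was the highest of the 6 libraries at 24 h and the lowest at 48 h, and the peak was not called (0.08 ± 0.11, edgeR adjusted p = 0.570). The SMARCD1 start peak, 19.5, 23.6 and 20.9 CPM against 25.6, 21.2 and 23.2, was not called either (0.13 ± 0.11, edgeR adjusted p = 0.382). SMARCE1, a core subunit with a DNA-binding HMG domain, had the called fall, at a peak 25.7 kb outside the gene (chr17:40599005-40599505). Its values were 6.66, 7.02 and 5.34 CPM in GFP high, against 6.69, 4.27 and 3.02 in GFP low, level at 24 h and apart later. The log2 difference was -0.49 ± 0.17 (edgeR adjusted p = 0.0243), and without the 72 h pair the edgeR adjusted p was 0.2002. With loess scaling the edgeR adjusted p was 0.0823, and the DESeq2 adjusted p was 0.113.

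The signature subunits had 41 peaks, of which 5 rose and 2 fell (12.2% and 4.88%, against 13.4% and 25.4% of all peaks). Of their 13 gene-end peaks 1 rose, 7.69% against 33.0% of all gene ends. Of the 28 away from gene ends 4 rose and 2 fell (14.3% and 7.14%, against 8.51% and 30.6% of all such peaks). The most open gene ends of the signature subunits were not called. SS18, a canonical and non-canonical BAF subunit, had 62.3, 59.6 and 64.5 CPM in GFP high, against 64.0, 67.6 and 73.0 in GFP low at chr18:26090377-26090877. The groups overlapped (0.13 ± 0.06, edgeR adjusted p = 0.0973). BICRAL, a non-canonical BAF subunit, had 29.8, 36.4 and 36.0 against 42.3, 35.8 and 41.4 CPM at chr6:42746700-42747200, a gene end it shares within 1 kb with TBCC. PHF10, a PBAF subunit, had 28.0, 36.8 and 36.0 against 33.2, 38.5 and 40.9 CPM at chr6:169723288-169723788. Both sets overlapped, and edgeR adjusted p-values were 0.0599 and 0.132.

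Rises were called in BCL7A, a subunit of the ATPase module, in BICRA, in SS18 and in BRD7. The BCL7A peak, 2.69 kb inside the gene (chr12:122024322-122024822), went from 11.2, 12.7 and 17.0 CPM to 15.3, 17.1 and 21.4. It was higher in GFP low at each time although the groups overlapped, with a log2 difference of 0.40 ± 0.11 (edgeR adjusted p = 0.00644). BICRA, a scaffold of non-canonical BAF, had a peak 7.81 kb outside the gene (chr19:47600132-47600632) at 21.7, 23.2 and 17.5 CPM and then 29.9, 22.8 and 27.8. GFP low was above GFP high at 24 and 72 h and about level at 48 h, and the log2 difference was 0.36 ± 0.12 (edgeR adjusted p = 0.0173). The gene-end rise of the signature subunits was that of BICRA as well, 0.35 ± 0.13 (edgeR adjusted p = 0.0308). A weak SS18 peak 12.5 kb outside the gene (chr18:26103495-26103995) was at 3.83, 2.31 and 3.41 CPM and then 3.69, 4.37 and 5.6. It differed at 48 and 72 h only, and rose by 0.53 ± 0.20 (edgeR adjusted p = 0.0371). A weak peak inside BRD7 rose by 0.40 ± 0.16 (edgeR adjusted p = 0.0468). Without the 72 h pair, the edgeR adjusted p-values of these signature rises were 0.0566 to 0.371.

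Of the falls, a BICRAL peak 31.0 kb from the gene's nearer end (chr6:42777088-42777588) went from 6.32, 7.36 and 6.75 CPM to 4.79, 3.91 and 4.89. All GFP low libraries were lower (-0.59 ± 0.16, edgeR adjusted p = 0.00432; 0.0694 without the 48 h pair). An SS18 peak 40.3 kb outside the gene (chr18:25975698-25976198) went from 3.61, 4.27 and 3.49 CPM to 2.56, 2.92 and 2.28. The GFP levels did not overlap there (-0.55 ± 0.20, edgeR adjusted p = 0.0303). The edgeR adjusted p was 0.151 without the 72 h pair and 0.117 with loess scaling, and the DESeq2 adjusted p was 0.138.

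The CHD genes held the most member peaks, 67, with 14 rises and 15 falls. That is 20.9% higher and 22.4% lower, against 13.4% and 25.4% of all peaks, so the share of falls was near that of all peaks. Of their 15 gene-end peaks 6 rose and 1 fell (40% and 6.67%, against 33.0% and 4.69% of all gene ends). Of the 52 away from gene ends 8 rose and 14 fell (15.4% and 26.9%, against 8.51% and 30.6% of all such peaks). CHD6, an ATPase whose roles are less known than those of its relatives, had the clearest gene-end rise of the members. Its gene-end peak (chr20:41618213-41618713) stood at 34.3, 41.8 and 38.9 CPM in GFP high, against 56.6, 57.3 and 55.1 in GFP low. The GFP low libraries were close to each other and all above the GFP high ones. The log2 difference was 0.56 ± 0.08 (edgeR adjusted p = 7.13e-06), 0.41 with loess scaling. Around the same gene 4 other peaks fell, and 1 rose. The deepest fall of any member was 39.5 kb outside CHD6 (chr20:41657614-41658114), from 3.65, 4.64 and 3.74 CPM to 1.46, 1.42 and 1.39. Every GFP low library was under every GFP high one, a log2 difference of -1.49 ± 0.22 (edgeR adjusted p = 1.91e-05). A peak 46.4 kb outside CHD6 (chr20:41664495-41664995), a few kilobases further out, instead rose from 8.34, 10.4 and 11.2 CPM to 12.8, 14.3 and 15.3. That change was 0.51 ± 0.12 (edgeR adjusted p = 0.00154). The remaining CHD6 falls were -0.98, -0.84 and -0.52, and the last was not called without the 24 h pair (edgeR adjusted p = 0.515).

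CHD7, the ATPase gene mutated in CHARGE syndrome, had 22 peaks, of which 3 rose and 4 fell. A fall 17.8 kb outside the gene (chr8:60885589-60886089) went from 13.0, 10.3 and 9.72 CPM to 4.86, 4.34 and 5.67. The GFP levels were well apart at all times (-1.15 ± 0.14, edgeR adjusted p = 2.08e-06). Inside the gene, a peak at 24.6 kb from its end fell by -1.09 ± 0.14 (edgeR adjusted p = 4.31e-06), with all GFP low libraries lower. A strong peak 26.7 kb outside CHD7 (chr8:60651759-60652259) rose, from 81.2, 81.0 and 83.6 CPM to 99.2, 95.7 and 105. Its groups did not overlap (0.29 ± 0.05, edgeR adjusted p = 0.000260), but it was 0.07 with loess scaling (edgeR adjusted p = 0.310). The CHD7 end itself (chr8:60678263-60678763) was at 44.2, 47.4 and 50.6 against 58.8, 51.2 and 60.6 CPM. GFP low was above all GFP high libraries there (0.26 ± 0.07, edgeR adjusted p = 0.00781; 0.262 with loess scaling, 0.119 without the 72 h libraries).

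CHD2, an ATPase tied to histone variant H3.3 deposition, had 5 rises and 2 falls among 10 peaks. A peak 22.2 kb inside it (chr15:92922324-92922824) fell from 15.3, 14.4 and 13.1 CPM to 7.28, 7.75 and 8.22. No GFP low library reached a GFP high one (-0.88 ± 0.12, edgeR adjusted p = 8.70e-06). A peak 3.95 kb inside (chr15:92904027-92904527) went the other way, from 66.0, 72.2 and 72.4 CPM to 83.2, 83.8 and 85.6. Here too the groups were apart (0.26 ± 0.06, edgeR adjusted p = 0.00119), with 0.06 under loess scaling (edgeR adjusted p = 0.407). The start peak shown above, at chr15:92900036-92900536, had 38.7, 41.4 and 41.6 CPM in GFP high, against 51.2, 49.1 and 48.2 in GFP low. It rose by 0.29 ± 0.08 (edgeR adjusted p = 0.00509; 0.124 with loess scaling, 0.0585 without the 72 h libraries). A CHD2 peak 2.80 kb beyond the far end of the gene (chr15:93030547-93031047) rose by 0.40 ± 0.11 (edgeR adjusted p = 0.00525) and, like the CHD6 end and the outermost CHD6 peak, passed under every alternative on the 6 libraries.

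CHD1, which spaces nucleosomes behind transcribing polymerase, and CHD8, a repressor of beta-catenin targets, had the most open gene ends of the group. The CHD1 peak at chr5:98929310-98929810 was at 91.3, 89.1 and 87.9 CPM in GFP high, against 99.2, 100 and 103 in GFP low. The CHD8 peak at chr14:21455911-21456411 was at 70.7, 81.1 and 70.3 against 89.8, 82.2 and 81.7 CPM. Neither pair of groups overlapped, though CHD8 differed little at 48 h. The rises were 0.17 ± 0.05 and 0.19 ± 0.06 (edgeR adjusted p = 0.0136 and 0.0192), and with loess scaling they turned to -0.05 and -0.01. A peak 4.55 kb outside CHD1 fell by -0.66 ± 0.12 (edgeR adjusted p = 0.000109). CHD9 had 3 falls, led by one 6.80 kb inside (chr16:53061537-53062037), from 16.3, 17.8 and 17.5 CPM to 9.07, 11.2 and 10.4. The groups did not overlap (-0.75 ± 0.11, edgeR adjusted p = 2.08e-05). CHD4, the main ATPase of the repressive NuRD complex, had the gene-end fall, -0.33 ± 0.12 at chr12:6608281-6608781 (edgeR adjusted p = 0.0286). It was 11.7, 13.4 and 15.0 CPM against 9.44, 9.63 and 12.9, with overlap, and lost its call with loess scaling (edgeR adjusted p = 0.0677). CHD3, the other NuRD ATPase, had 1 peak, which was not called.

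**Figure D4:**
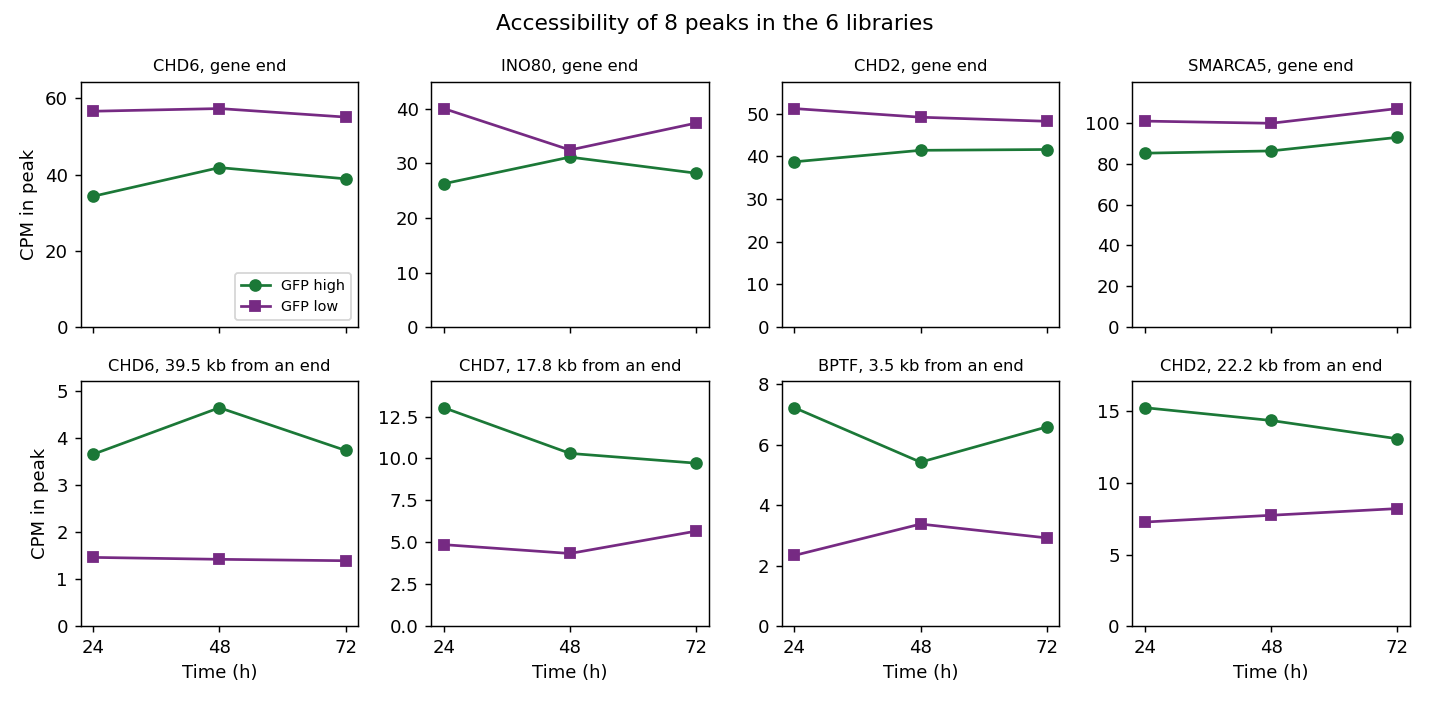
Accessibility in CPM of 8 member peaks in each of the 6 libraries, by time in hours, green circles for GFP high and purple squares for GFP low; the upper panels are gene ends and the lower ones lie away from them, and every axis starts at 0. The CHD6 end runs from 34.3 to 41.8 CPM in GFP high, GFP low lying at 55.1 to 57.3, and the CHD6 peak 39.5 kb outside from 3.65 to 4.64 and from 1.39 to 1.46.

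ISWI members had 31 peaks, of which 5 rose and 2 fell (16.1% and 6.45%, against 13.4% and 25.4% of all peaks). Of their 10 gene-end peaks 4 rose, 40% against 33.0% of all gene ends. Of the 21 away from gene ends 1 rose and 2 fell (4.76% and 9.52%, against 8.51% and 30.6% of all such peaks). The ISWI ATPase among the members is SMARCA5, and the BAZ and BPTF proteins are subunits of ISWI complexes. Its gene-end peak just upstream of the RefSeq start (chr4:143513126-143513626) had 85.1, 86.2 and 92.9 CPM in GFP high, against 101, 99.8 and 107 in GFP low. The neighbouring peak that holds the start (chr4:143513673-143514173) had 66.9, 62.1 and 67.6 against 73.3, 81.1 and 75.9. In both, all GFP low libraries were above all GFP high ones. Their log2 differences were 0.22 ± 0.05 and 0.23 ± 0.06 (edgeR adjusted p = 0.00243 and 0.00729). With loess scaling they came to -0.0056 and 0.03, and without the 72 h pair the edgeR adjusted p-values were 0.0686 and 0.0632. BAZ1B, the WICH partner, rose at its end (chr7:73522099-73522599) from 41.1, 51.6 and 46.5 CPM to 57.9, 52.3 and 56.2. The groups were apart but nearly met at 48 h (0.26 ± 0.08, edgeR adjusted p = 0.0133; 0.0648 without the 24 h pair and 0.124 without the 72 h pair). BAZ2B, a bromodomain partner, was at 77.0, 77.8 and 83.8 against 84.1, 84.3 and 100 CPM at chr2:159711944-159712444, a peak also within 1 kb of an end of MARCHF7. It rose by 0.17 ± 0.06 (edgeR adjusted p = 0.0234), and the difference was -0.045 with loess scaling.

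BAZ2A, the partner in the NoRC complex that silences ribosomal genes, had a rise 1.40 kb inside its span (chr12:56636670-56637170), from 36.4, 41.3 and 42.6 CPM to 52.3, 45.3 and 46.4. The groups did not overlap (0.26 ± 0.08, edgeR adjusted p = 0.0190; 0.137 without the 24 h pair and 0.0602 without the 72 h pair). BPTF, the largest subunit of the NURF complex, showed the deepest fall of the ISWI genes, 3.47 kb from its end and inside it (chr17:67980658-67981158). It went from 7.22, 5.42 and 6.59 CPM in GFP high to 2.34, 3.38 and 2.92 in GFP low. All GFP low libraries were lower, by -1.15 ± 0.18 on the log2 scale (edgeR adjusted p = 3.84e-05). BAZ1A, the ACF partner, fell 17.5 kb inside its span (chr14:34857645-34858145), from 6.66, 4.98 and 5.02 CPM to 4.13, 2.52 and 3.23. Here as well the groups were apart (-0.76 ± 0.17, edgeR adjusted p = 0.00120). At their gene ends neither gene had a called peak: the nearest to it was one of BPTF at 0.24 ± 0.10 (edgeR adjusted p = 0.0568).

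The INO80-class genes and the SNF2 genes SMARCAD1 and HELLS had 20 peaks, 5 that rose and 3 that fell (25% and 15%, against 13.4% and 25.4% of all peaks). Of their 9 gene-end peaks 4 rose, 44.4% against 33.0% of all gene ends. Of the 11 away from gene ends 1 rose and 3 fell (9.09% and 27.3%, against 8.51% and 30.6% of all such peaks). The share of falls was thus near that of all peaks in the same position. INO80, the ATPase that gives its class the name, had a rise at its start (chr15:41116014-41116514), from 26.3, 31.2 and 28.2 CPM to 40.0, 32.5 and 37.4. GFP low was above every GFP high library, narrowly so at 48 h (0.36 ± 0.10, edgeR adjusted p = 0.00698; 0.107 without the 72 h pair). The more open INO80 peak beside it (chr15:41115426-41115926), at 37.1, 43.8 and 42.7 against 47.4, 40.1 and 44.7 CPM, was not called (0.09 ± 0.09, edgeR adjusted p = 0.394). EP400, the ATPase of the TIP60 acetyltransferase complex, stood at 33.6, 34.5 and 35.1 against 42.4, 39.4 and 44.3 CPM at its start (chr12:131949549-131950049). HELLS, which works in DNA methylation, stood at 34.4, 35.4 and 33.1 against 38.9, 42.8 and 40.1 CPM (chr10:94545453-94545953). Neither pair of groups overlapped, and the rises were 0.29 ± 0.08 and 0.24 ± 0.08 (edgeR adjusted p = 0.00836 and 0.0234). With loess scaling edgeR adjusted p-values were 0.103 and 0.238, and without the 72 h pair 0.174 and 0.252.

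Inside EP400, 26.9 kb from its end (chr12:132053328-132053828), a peak fell from 6.97, 7.29 and 6.51 CPM to 4.42, 3.41 and 2.92. Every GFP low library was lower (-0.96 ± 0.16, edgeR adjusted p = 6.69e-05). SMARCAD1, which acts in DNA repair and heterochromatin upkeep, fell 36.8 kb inside (chr4:94244163-94244663), from 9.72, 11.8 and 9.28 CPM to 5.92, 7.0 and 6.01. Its groups were apart too (-0.70 ± 0.13, edgeR adjusted p = 0.000176), while its end rose by 0.25 ± 0.10 (edgeR adjusted p = 0.0497). For that end the edgeR adjusted p was 0.231 without the 72 h pair and 0.153 with loess scaling, and the DESeq2 adjusted p was 0.111. SRCAP, which loads histone H2A.Z, had both peaks at gene ends and neither passed, at 0.20 ± 0.10 (edgeR adjusted p = 0.111) and 0.20 ± 0.11 (edgeR adjusted p = 0.152).

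**Figure D5:**
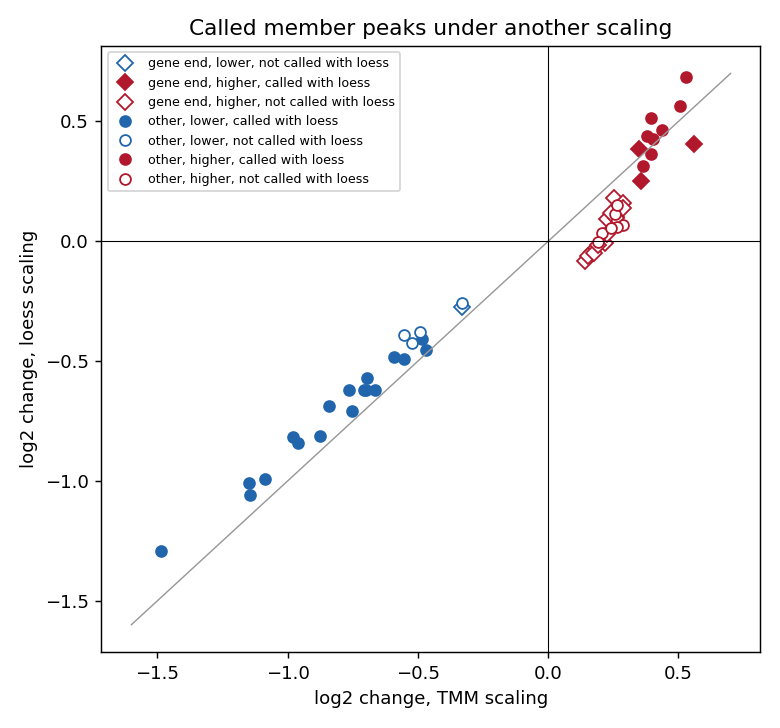
Log2 difference of the called member peaks under the TMM scaling used throughout (horizontal axis) and under loess scaling (vertical axis), 1 point per peak; diamonds are gene-end peaks, filled points are also called with loess scaling, and the diagonal marks equal values. Falls away from gene ends stay between -0.26 and -1.29 under loess scaling, while the 17 gene-end rises spread from -0.08 to 0.41.

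At single times there was 1 library per GFP level, so differences have no test and were counted at 2-fold, on CPM with a prior count of 2. At 24 h 7 member peaks were at least 2-fold lower in GFP low and 0 higher, where 8.16% and 0.212% of all peaks were. At 48 h 4 were lower and 1 higher (3.85% and 0.226% of all peaks), and at 72 h 6 and 0 (3.83% and 0.0911%). With loess scaling the 6 came to 3, and leaving out the V1 or V2 columns gave 2 or 3 rises at 48 h. The intervals given next, with 95% limits, cover only counting error widened by the spread between the columns of a group. The lowest value at 24 h was that of the BPTF peak above, -1.6 (-2.15 to -1.04). The highest was 0.82 (0.23 to 1.40), at a weak BAZ1A peak with 2.67 CPM in GFP high, against 4.75 in GFP low. At 48 h and 72 h the lowest was the CHD6 peak 39.5 kb outside, -1.66 and -1.38. A BRD7 peak 13.7 kb outside was highest at 48 h, 1.04 (0.44 to 1.64), at 2.0 against 4.2 CPM. At 72 h the highest was the SS18 peak 12.5 kb outside, 0.70. Member gene-end peaks had medians of 0.31, 0.02 and 0.16 at 24, 48 and 72 h, where all gene-end peaks had 0.25, 0.07 and 0.17. The gene-end rise of the members was thus near 0 at 48 h.

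Time was compared within each GFP level as 72 h minus 24 h. In GFP high no member peak changed 2-fold (0.599% of all peaks were lower and 0.0841% higher). In GFP low 3 were at least 2-fold lower and 0 higher (1.09% and 0.632% of all peaks); without the V0 columns 1 was lower. Of the 3 SMARCE1 peaks outside the gene, 2 were among them, and the third, at 28.2 kb, changed by -0.31 in GFP low and -0.11 in GFP high. The one at 9.50 kb went from 11.3 to 6.47 and 4.72 CPM, -1.24 (-1.63 to -0.86) from 24 to 72 h, and in GFP high it was 9.12, 8.68 and 7.19 CPM, -0.34. The one at 25.7 kb changed by -1.13 in GFP low and -0.32 in GFP high. A CHD9 peak 37.0 kb inside was the other, from 5.38 to 3.70 and 2.65 CPM, -1.0, against -0.45 in GFP high. Whether these time courses differ between the GFP levels was not tested.

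The rule of 50 kb was examined at its edge. Just inside it lay an SS18 peak at 41.6 kb (0.43), a CHD7 peak at 43.7 kb (-0.04) and the CHD6 peak at 46.4 kb (0.51). Just outside were CHD2 peaks at 50.8 and 55.0 kb (-0.21 and -0.14) and a CHD6 peak at 55.3 kb (-0.74). With peaks whose centre is inside the gene alone, the rises were 10 and the falls 14.

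Other genes of the same complexes give the context. The BAF ATPase and ARID subunits (SMARCA4, SMARCA2, ARID1A, ARID1B, ARID2 and PBRM1) had 91 peaks, of which 26 fell and 10 rose. That is 28.6% lower and 11% higher, against 25.4% and 13.4% of all peaks. Apart from a SMARCA4 peak (-0.37), every one of these falls was at ARID1B, so the share lower reflects mainly that locus. The rises were at ARID1B, ARID2 and SMARCA2. Of their 10 gene ends 4 rose and none fell, 40% higher against 33.0% of all gene ends. Partner subunits of NuRD, INO80, SRCAP, TIP60 and ISWI complexes had 171 peaks in 38 genes, of which 31 fell and 37 rose (18.1% and 21.6%). Of their 63 gene ends, 24 rose and 2 fell, against the 17 and 1 of 60 in the members. The partner shares were 38.1% and 3.17%, where 33.0% and 4.69% of all gene ends were called. Away from gene ends the partners had 29 falls and 13 rises among 108 peaks (26.9% and 12%, against 30.6% and 8.51% of all such peaks). By complex, falls and rises were 13 and 13 of 65 for NuRD partners, 3 and 7 of 33 for INO80, 12 and 13 of 57 for SRCAP and TIP60, and 6 and 9 of 26 for ISWI. In that order the shares were 20% and 20%, 9.09% and 21.2%, 21.1% and 22.8%, and 23.1% and 34.6%. RBBP4 and RBBP7 were on both the NuRD and the ISWI list. Their called peaks count under each complex but only once in the 171, so the NuRD and ISWI shares are not independent. Paralogues restricted to other tissues, such as ACTL6B and CHD5, had 13 peaks with 3 falls (23.1%) and 0 rises. No difference between these lists and the members was tested.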

How the data were processed

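The authors deposited raw whole-number counts of reads for 71318 peaks of 501 bp on hg38, in 18 columns. The submitters' processing notes name BWA, FastQC, R 4.2.1 and deepTools, per the labels. Their settings, the peak caller, duplicate removal and any offset applied for the transposase are not given in the sources here. Each of these could move the counts.

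Each column name has a D number, read as 24, 48 or 72 h, and a V number, which was not matched to a replicate. Differences between the 3 columns of a group averaged 1.78 to 1.81 times counting noise, so they were summed to 1 library. Nothing says that libraries came from separate cultures, so p-values measure only the spread between these libraries, which may be technical. With 1 library per GFP level and time, that spread is how far the GFP difference varied between the 3 times. It therefore also holds any real change of that difference with time. With D numbers as times, columns sharing a V number correlated at 0.018 at most, so any pairing by V number was very small.

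GFP levels were compared with edgeR 4.0.16 (R 4.3.3) by a robust quasi-likelihood fit of time plus GFP level on 6 libraries with TMM scaling and 2 residual degrees of freedom, over all peaks, with Benjamini-Hochberg adjustment at 0.05. The low-count filter removed 0 peaks. The spread borrowed from other peaks had a median of 22.6 prior degrees of freedom and the biological coefficient of variation was 9.48%. The pipeline was tested on simulated data. Alternatives were DESeq2 1.42.0, other scalings and filters, and times, columns or distances changed.

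Peaks were assigned to 19888 RefSeq protein-coding genes on GRCh38, after 105 readthrough genes were left out. Values per library are given, by role, for up to 3 gene ends with the most CPM, 3 rises and 3 falls with the smallest p, and for the extremes at each time; others were chosen from called and gene-end peaks. Members and lists were chosen with earlier results of these data known.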

Additional observations from a re-analysis of the deposited data

Results flagged for a closer look

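At 3 member peaks 2 groups moved in opposite directions under the same contrast, each with a counting interval, widened as above, that left out 0. None of these differences was tested. A peak 25.2 kb outside CHD7 (chr8:60653324-60653824) changed from 24 to 72 h by 0.18 on the log2 scale in GFP high and by -0.21 in GFP low. Its CPM was 37.3, 44.3 and 42.4 in GFP high and 50.9, 45.1 and 44.0 in GFP low, so the levels differed at 24 h and met later. The BAZ2A peak 1.40 kb inside the gene changed by 0.23 in GFP high and -0.17 in GFP low over the same times. At the SMARCD2 end (chr17:63842800-63843300), GFP low minus GFP high came to 0.39, -0.34 and 0.19 at 24, 48 and 72 h in turn.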

How the results depend on the processing

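The falls away from gene ends depended least on the processing, and the rises most. Over all peaks, rises numbered 9570, and 3721 with DESeq2, 15584 with upper-quartile scaling and 2503 without the 72 h pair. Member rises (32) came to 14 with DESeq2, 53 with upper-quartile scaling, 20 with loess scaling, 6 without the 72 h pair and 10 with peak centres inside the gene only. At gene ends (17) the same 5 settings gave 6, 29, 3, 1 and 4. Away from gene ends (15) they gave 8 with DESeq2, 24 with upper-quartile scaling, 17 with loess scaling, 5 without the 72 h pair and 6 inside genes only. These counts are totals under each setting and can hold peaks not called before. With loess scaling 8 of the 15 kept their call. Member falls (23), and those away from gene ends (22), came to 14 each inside genes only. The inside-gene setting changes no call. It only leaves out peaks centred outside the gene, among them start peaks centred just upstream, such as those of CHD2, EP400 and HELLS. Treating the 18 columns as samples concerns differences between libraries: without a replicate block it gave 19287 rises over all peaks and 65, 32 and 33 in members, at gene ends and away. With the replicate block it gave 19080, 64, 31 and 33. Columns with the same V number correlated at -0.0052 to 0.018 after group means were removed (median 0.0046). Those with another V number correlated at -0.015 to 0.011 (median -0.0024). Of the 18 columns 15 correlated best with their own number, so any pairing by V number was present only at very small correlations. With the V number read as time the rises were 18464, 64, 31 and 33. Leaving out a V number gave 26 to 29 member rises and 19 to 27 falls. At single times it gave 0 to 1 rises of 2-fold at 24 h and 1 to 3 at 48 h. From 24 to 72 h it gave 0 to 1 falls in GFP high, and 1 to 3 falls and 0 to 1 rises in GFP low. Loess scaling gave 1 rise at 24 h and 3 falls at 72 h. It turned 7 called rises: BAZ2B (-0.045), ACTL6A (-0.084), SMARCA5 (-0.0056), both CHD1 peaks (-0.061 and -0.051), CHD8 (-0.014) and CHD2 at chr15:92882183-92882683 (-0.0025); the cause was not tested. No scaling moved the median of all peaks by over 0.063. Without the 72 h pair 31 of the 55 called member peaks lost their call, with DESeq2 23, and the direction stayed in each. Depth limits weak peaks most: at a few CPM, single-time intervals span about 1 log2 unit.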
